A study of Mus musculus with 24 samples.

Results

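The 10 genes described here belong to 2 families of conjugating enzymes and were followed in mouse colon, with 6 UDP-glucuronosyltransferases (Ugt2b5, Ugt2b34, Ugt2b35, Ugt2b36, Ugt2b37 and Ugt2a3) and 4 sulfotransferases (Sult1a1, Sult1b1, Sult1c2 and Sult1d1). They were read by 13 of the 56605 probes and are 10 of the 45616 gene names on the array. The 10 genes were selected from earlier results of these same arrays, with their signals over the 6 groups known, so their values and their differences between diets are a description and carry no test. Colon RNA came from C57BL/6J mice, bought at 7 weeks of age, with 1 mouse per array and 4 arrays in each of 6 groups. Males (M), females (F) and ovariectomized females, F(OVX), were each fed a low-fat diet (LFD) or a high-fat diet (HFD). M and F mice had sham surgery, whereas the OVX mice were ovariectomized, which removes the main source of estrogen. All 6 groups, the LFD groups included, received azoxymethane (AOM, 10 mg/kg), a colon carcinogen, followed by dextran sulfate sodium (DSS, 1.5% in 3 cycles) that injures the colonic epithelium, so no group is free of carcinogen and colitis. LFD held 10 kcal% fat and HFD 45 kcal% fat, both fed for 14 weeks, and the distal colon was taken 75 days after AOM. The methods name 5 animals per group for the arrays, and 4 are analyzed here. A slide carried arrays of 1 sex or surgery, the LFD arrays in row 1 and the HFD arrays in row 2, so that sex or surgery cannot be told apart from slide, nor diet from slide row.

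UDP-glucuronosyltransferases sit in the membrane of the endoplasmic reticulum and attach glucuronic acid, taken from UDP-glucuronic acid, to drugs, steroids, bile acids and other lipophilic compounds. Cytosolic sulfotransferases attach a sulfonate group from the donor PAPS to phenols, steroids, catecholamines and thyroid hormones. Both reactions make their substrates more soluble and ready for export. The liver is best known for them, and the intestinal epithelium carries its own set, whose members differ along the length of the gut.

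Signals are log2 values of the background-subtracted spot intensity after quantile normalization, and a probe counts as detected on an array where the scanner software set it well above background. The values of undetected probes are bounds on the level rather than levels. The lowest detected signal differed between arrays, from 3.08 on M + LFD replicate 1 to 5.89 on F(OVX) + LFD replicate 3. Counts of arrays with detection therefore do not rest on a common limit. A signal is compared only with the same probe on other arrays, since probes differ in brightness. In whole colon, fewer cells of a type and less RNA per cell cannot be told apart.

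The arrays were first checked with markers. All 9 epithelial markers were detected on all 24 arrays, with a mean signal between 14.41 and 15.18. The 4 hepatocyte markers averaged 2.92 to 4.03, and 2 of them were detected on no array. M + LFD replicates 1 and 2 stood apart from the other 22 arrays. Hoxb13, a homeobox gene of the most posterior gut, read 2.18 and 5.04 on them and 12.58 to 14.79 on the others. The 6 distal Hox genes together averaged 2.74 and 3.90 on these arrays against 5.42 to 9.48 elsewhere, the 5 anterior Hox genes 8.95 and 8.54 against 5.19 to 7.13, and the 5 small intestinal markers 7.51 and 10.51 against 5.38 to 7.01. Results in males are therefore given with and without these arrays. A fit with the mean of the distal Hox genes as a covariate was also run, and gut position as a cause was not tested.

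Of the 10 genes, 8 lie on chromosome 5, among 12 neighbouring protein-coding genes that run, in order, Ugt2b34, Ugt2b1, Ugt2b35, Ugt2b36, Ugt2b5, Ugt2b37, Ugt2a3, Ugt2b38, Ugt2a1, Ugt2a2, Sult1b1 and Sult1d1. Sult1a1 lies on chromosome 7 and Sult1c2 on chromosome 17. The 250 bases before the start of Ugt2b5, Ugt2b36 and Ugt2b37 are shown because these varied most of the 10 genes between arrays. Those of Ugt2b34 are shown because it varied least of the 10 among detected genes. Ugt2b38, a neighbour outside the 10, varied more widely still, from 2.47 to 11.49, and its window is not shown. Sequences are from RefSeq on GRCm38.p6, all on the minus strand and written 5′ to 3′ along the gene. Capitals mark the longest run shared by the first 3.
Ugt2b5, chr5:87140341-87140590: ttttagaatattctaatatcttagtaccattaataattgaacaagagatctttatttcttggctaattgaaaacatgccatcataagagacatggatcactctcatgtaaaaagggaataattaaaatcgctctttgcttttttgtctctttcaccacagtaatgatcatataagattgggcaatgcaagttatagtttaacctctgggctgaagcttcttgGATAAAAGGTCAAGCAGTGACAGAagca
Ugt2b36, chr5:87092556-87092805: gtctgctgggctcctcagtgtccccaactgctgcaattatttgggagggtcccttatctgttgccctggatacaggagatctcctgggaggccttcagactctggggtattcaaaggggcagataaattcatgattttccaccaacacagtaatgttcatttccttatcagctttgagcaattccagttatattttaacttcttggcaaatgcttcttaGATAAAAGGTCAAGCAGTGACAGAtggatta
Ugt2b37, chr5:87254789-87255038: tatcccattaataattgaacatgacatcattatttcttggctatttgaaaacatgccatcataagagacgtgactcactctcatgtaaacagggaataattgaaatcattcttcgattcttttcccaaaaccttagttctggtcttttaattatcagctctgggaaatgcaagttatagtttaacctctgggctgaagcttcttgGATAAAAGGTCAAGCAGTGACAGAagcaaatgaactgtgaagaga
Ugt2b34, chr5:86906938-86907187: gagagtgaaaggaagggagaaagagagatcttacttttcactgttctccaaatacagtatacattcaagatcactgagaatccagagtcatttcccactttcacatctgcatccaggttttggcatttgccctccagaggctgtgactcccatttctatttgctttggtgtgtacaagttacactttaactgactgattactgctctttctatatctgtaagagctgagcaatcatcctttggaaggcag
The shared run of 24 bases ended 5, 8 and 22 bases before the start of Ugt2b5, Ugt2b36 and Ugt2b37. It occurred in the windows of these 3 genes and in no other of 32851 promoter windows (0.00913%). Over the 250 bases, Ugt2b5 and Ugt2b37 were identical at 73.0% of aligned columns and Ugt2b5 and Ugt2b36 at 60.2%, whereas Ugt2b34 matched the 3 at 50.2% to 54.4%. Motifs of intestinal factors were searched on both strands. An HNF1 motif, GTTAAT, was found in 6.43% of all windows and in 3 of the 11 windows of the 10 genes (Ugt2a3, Sult1a1 and Sult1d1). A CDX motif, TTTATG, was found in 10.8% of all windows and in 1 of the 11 (Sult1d1). The TATA box letters TATAAA were found in 12.4% and in 0 of the 11. The 4 windows shown held none of the 3 motifs in these exact letters. Sites that differ from them in any base were not searched, so absence of a site cannot be read from this.

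The widest range of signal among the 10 genes belonged to Ugt2b5, an enzyme of the UGT2B subfamily known for conjugating steroids and drugs. In M + LFD it read 10.76, 9.94, 6.62 and 3.39 on replicates 1 to 4, and in M + HFD 2.02, 4.70, 5.76 and 4.25. In F + LFD it read 6.17, 7.33, 1.99 and 2.67, and in F + HFD 5.52, 6.34, 3.17 and 5.67. In F(OVX) + LFD it read 4.34, 2.98, 5.59 and 4.36, and in F(OVX) + HFD 4.25, 8.16, 6.96 and 4.28. The highest signals were thus on the M + LFD arrays that stood apart, with F(OVX) + HFD replicate 2 next, and LFD and HFD arrays overlapped in all 3 comparisons. Ugt2b5 was detected on 14 of 24 arrays and on all 4 of no group, and it was therefore not tested.

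Ugt2b37, whose start region is the most like that of Ugt2b5, was detected on 6 arrays. It read 8.72, 8.05, 5.50 and 4.25 in M + LFD, where 3 arrays were above background, and 2.65, 2.05, 4.60 and 2.49 in M + HFD, where none was. Its mean in M + LFD was 5.18-fold the detection limit of M + HFD, taken as the lowest signal detected on each M + HFD array. Without M + LFD replicates 1 and 2 this ratio was 1.54, from the 2 arrays left. Neither ratio is a strict lower bound, because Ugt2b37 was undetected on M + LFD replicate 4 and entered there at its reading of 4.25. In F + LFD it read 4.43, 5.37, 2.11 and 2.95 and in F + HFD 3.81, 2.83, 2.12 and 3.50, with 2 and 0 arrays above background. In F(OVX) + LFD all 4 arrays read 2.11 to 2.19 and in F(OVX) + HFD they read 3.37, 6.19, 4.99 and 3.88, with 1 detected (6.19). No fold is given there, because the F(OVX) + HFD mean of 4.61 was below the F(OVX) + LFD detection limit of 4.65.

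Ugt2b36, the next neighbour, was detected on 5 arrays. It read 8.85, 7.94, 3.45 and 3.06 in M + LFD, with the first pair detected, and 2.12, 2.92, 3.97 and 2.08 in M + HFD, with none detected. The M + LFD mean was 2.96-fold the M + HFD detection limit, again no strict bound because the other pair of M + LFD arrays was undetected. For Ugt2b36 without replicates 1 and 2, the M + LFD mean was below the limit of detection. Outside males it was detected on F + LFD replicates 1 (4.50) and 2 (5.62) and on F(OVX) + HFD replicate 2 (5.89), the arrays where Ugt2b37 was also detected in these groups. Ugt2b5, Ugt2b36 and Ugt2b37 were all detected on these 3 arrays and on M + LFD replicates 1 and 2, which makes 5 of the 24 arrays. Near-identical paralogs lie beside each other here, and because the probe sequences were not used it is uncertain how far the 3 probes read one another's transcripts.

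**Figure D1:**
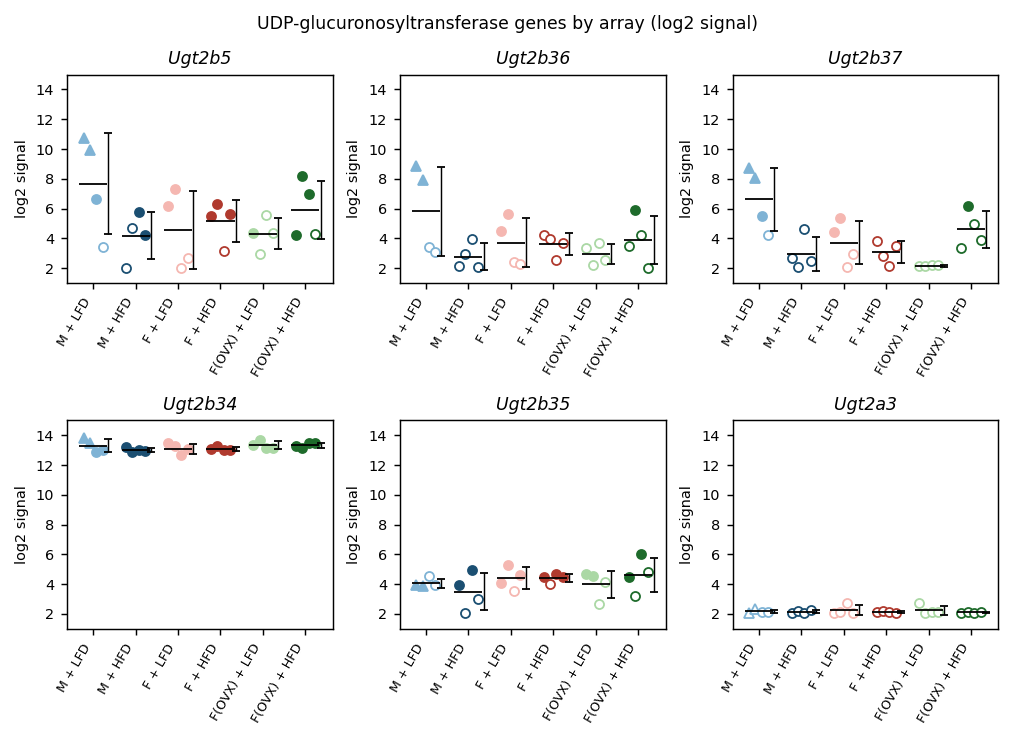
Log2 signal of the 6 UDP-glucuronosyltransferase genes on each array, by group (4 arrays each, in replicate order). Filled symbols are well above background and open symbols are not, triangles are M + LFD replicates 1 and 2, and lines and bars give the group mean and SD. Ugt2b5, Ugt2b36 and Ugt2b37 reach 10.76, 8.85 and 8.72 on M + LFD replicate 1, while Ugt2b34 stays between 12.66 and 13.81 and Ugt2a3 is detected nowhere.

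The other 3 glucuronosyltransferases varied little or were near background. Ugt2b34 was detected on all 24 arrays, between 12.66 (F + LFD replicate 3) and 13.81 (M + LFD replicate 1), and its group means lay between 13.01 ± 0.14 (SD, n = 4) in M + HFD and 13.34 ± 0.17 in F(OVX) + HFD. Neighbouring group means in the order of level differed by less than the larger SD of the pair. Ugt2b35 was detected on 14 arrays, with signals of 2.09 to 6.001 and no group detected throughout. Its highest signal, 6.001, was on F(OVX) + HFD replicate 3. Ugt2a3, which is known for bile acid glucuronidation, read 2.05 to 2.76 and was detected on no array.

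All 4 sulfotransferases were detected on all 24 arrays. Sult1d1, which sulfonates catecholamines, had the widest range of the 4, from 9.72 to 13.05. It read 13.05, 12.45, 10.27 and 10.17 in M + LFD and 10.22, 10.13, 10.84 and 11.44 in M + HFD. The first pair of M + LFD arrays was again above all others, and without it the range over 22 arrays was 9.72 to 11.90. The female arrays read 11.59, 11.01, 9.72 and 10.44 with LFD and 10.95, 11.17, 10.21 and 10.54 with HFD. The OVX arrays read 10.69, 11.50, 11.07 and 10.27 with LFD and 10.92, 11.90, 11.002 and 10.76 with HFD, and groups overlapped in each comparison. A second Sult1d1 probe gave the same direction of difference in the 3 comparisons.

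Sult1a1, the main phenol sulfotransferase, read 14.70, 15.03, 13.96 and 13.52 in M + LFD and 13.94, 13.83, 13.95 and 13.82 in M + HFD. In F + LFD it read 14.41, 13.73, 12.83 and 12.84, and in F + HFD 14.11, 13.80, 14.23 and 13.34. In F(OVX) + LFD it read 13.48, 14.36, 12.50 and 12.46, and in F(OVX) + HFD 14.06, 14.61, 13.56 and 14.02. The 4 lowest of the 24 arrays were all of LFD females with or without ovariectomy (F + LFD replicates 3 and 4, F(OVX) + LFD replicates 3 and 4), while M + HFD arrays lay within 13.82 to 13.95. Group means ran from 13.20 ± 0.90 in F(OVX) + LFD, 13.45 ± 0.77 in F + LFD, 13.87 ± 0.39 in F + HFD, 13.88 ± 0.07 in M + HFD and 14.07 ± 0.43 in F(OVX) + HFD to 14.30 ± 0.69 in M + LFD, and each step between neighbours was smaller than the larger SD of the pair.

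Sult1b1, which sulfonates thyroid hormones and phenols, and Sult1c2, also of the phenol sulfotransferase subfamily, stayed within narrow ranges. Sult1b1 read 12.01 to 13.27 over the 24 arrays. Its F(OVX) + LFD arrays, 12.93, 13.27, 12.86 and 12.94, were all above its F(OVX) + HFD arrays, 12.70, 12.62, 12.86 and 12.62, although the closest pair was equal to 2 decimals and the groups overlapped by the second, dimmer probe (difference -0.48). Sult1b1 was not called in that comparison, where 2.19% of all 19211 genes tested were. How many of all genes had LFD and HFD arrays without overlap was not counted, so nothing is read from this order. Sult1c2 read 10.05 to 12.07, with its lowest array in F(OVX) + LFD (replicate 3) and its highest in M + HFD (replicate 1), and its groups overlapped in all comparisons.

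**Figure D2:**
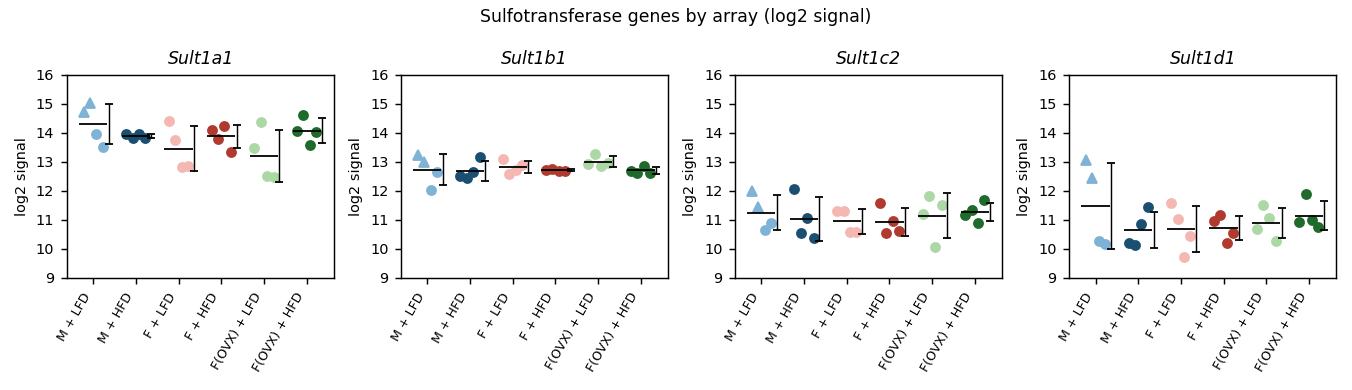
Log2 signal of the 4 sulfotransferase genes on each array, by group (4 arrays each, in replicate order), all well above background. Triangles are M + LFD replicates 1 and 2, and lines and bars give the group mean and SD. Sult1d1 is highest on these arrays (13.05 and 12.45), whereas Sult1b1 stays between 12.01 and 13.27. The vertical axis does not start at 0.

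Diets were compared within males, females and OVX females, as in the design of the study. A gene was tested if its brightest probe was detected on all 4 arrays of either diet and was called where limma gave a change of 1.5-fold or more with p under 0.05 before adjustment, which are the limits set in the methods. Among all genes, 882 of 20515 (4.3%) were called in the male comparison, 264 of 22085 (1.2%) in the female comparison and 421 of 19211 (2.19%) after ovariectomy. With adjustment by the Benjamini-Hochberg method 0 genes passed 0.05 in any of the 3, and 1250, 643 and 709 had an unadjusted p under 0.05. Ugt2b34 and the 4 sulfotransferases were tested in each comparison, and 0 of these 5 were called in any comparison, with limma or with the methods' t-test. Nothing is read from these counts, because the genes were selected with these contrasts known.

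In males, all 5 detected genes were lower with HFD, with a median difference of -0.28 on the log2 scale against 0.01 over all genes tested. Sult1d1 was lower by 0.83 (difference -0.83, SE 0.68, n = 4 per group), Sult1a1 by 0.42 (-0.42, SE 0.31), Ugt2b34 by 0.28 (-0.28, SE 0.22) and Sult1c2 by 0.23 (-0.23, SE 0.42), and Sult1b1 was nearly equal (-0.04, SE 0.28). Without M + LFD replicates 1 and 2, all 5 were higher with HFD, by 0.44 (SE 0.39) for Sult1d1, 0.35 (SE 0.29) for Sult1b1, 0.24 (SE 0.47) for Sult1c2, 0.14 (SE 0.19) for Sult1a1 and 0.08 (SE 0.17) for Ugt2b34. The direction of these differences, none of them called, thus turned without these arrays. Without M + LFD replicate 4, Sult1a1 was called (difference -0.68), in a setting that called 1510 of all genes in place of 882. Ugt2b5 and Ugt2b37 were tested and called there too, but they entered the test only because that array, on which neither was detected, was left out, so nothing is read from those calls. With all arrays Ugt2b5, Ugt2b36 and Ugt2b37 were not tested in males, and only the signals and ratios above are given. The second Sult1b1 probe, which was dimmer, went the other way from the first in males (0.41 against -0.04).

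In females, differences between diets were small beside the spread of the arrays. Sult1a1 was 0.42 higher with HFD (SE 0.38), and Sult1b1 (-0.11, SE 0.14), Sult1c2 (-0.03, SE 0.29), Sult1d1 (0.03, SE 0.40) and Ugt2b34 (-0.02, SE 0.18) were near 0. Female arrays of the same replicate number deviated together, although the labels state no pairing. With the number as a block 586 genes were called in place of 264, still with 0 of the 5. Without F + LFD replicate 1 Sult1a1 was called (difference 0.74).

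In OVX females, Sult1a1 was 0.86 higher with HFD (SE 0.43, 14.07 ± 0.43 against 13.20 ± 0.90), and Sult1b1 was 0.30 lower (-0.30, SE 0.14). Sult1d1 (0.27, SE 0.32), Sult1c2 (0.13, SE 0.36) and Ugt2b34 (0.00, SE 0.17) differed by less than their SE. The second Sult1a1 probe differed by 0.93. Ugt2b37, Ugt2b5 and Ugt2b36 were not tested. Without F(OVX) + LFD replicate 2 Sult1a1 was called (difference 1.25).

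**Figure D3:**
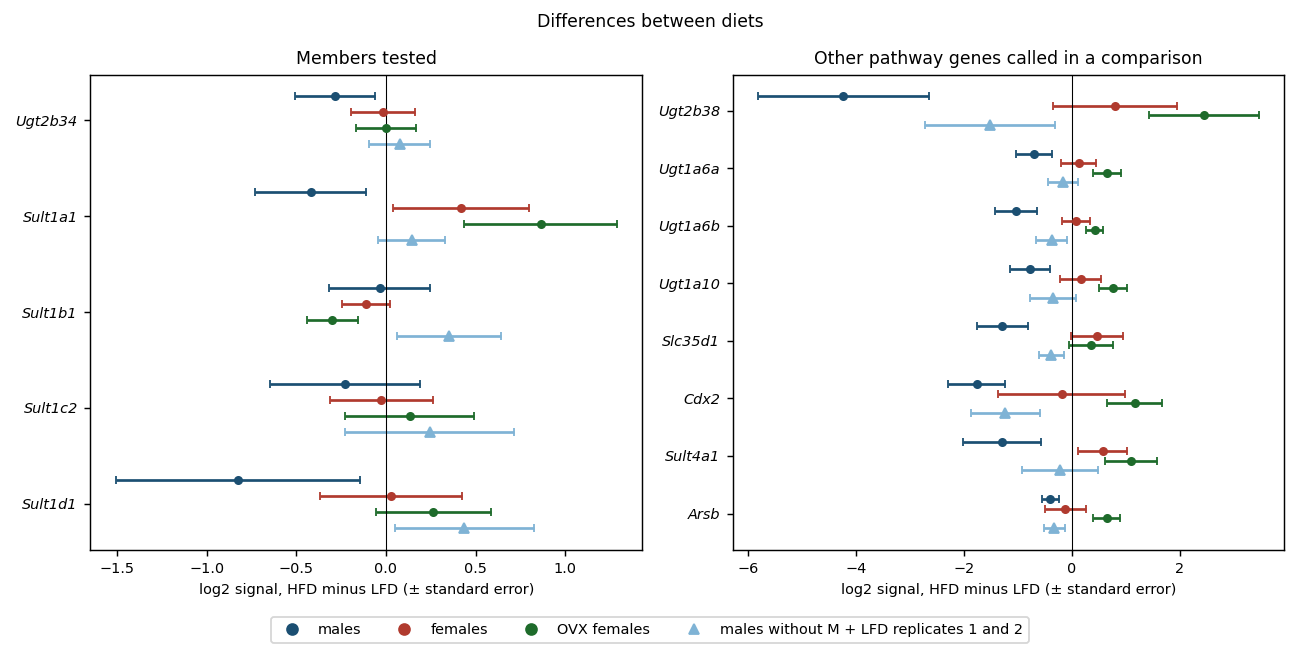
Differences in log2 signal, HFD minus LFD, with their standard errors, for the 5 genes tested (left) and for other pathway genes called in at least 1 comparison (right). Circles are males, females and OVX females with 4 arrays per diet, and triangles are males without M + LFD replicates 1 and 2. Sult1d1 is at -0.83 in males and at 0.44 without these arrays, and Ugt2b38 at -4.23 and -1.51. The horizontal scales of the panels differ.

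Whether the effect of diet differed between sexes or surgeries was asked of the differences themselves in a fit of all 24 arrays. Between males and females 661 of 22383 genes (2.95%) were called, between males and OVX females 1378 (6.16%) and between OVX females and females 340 (1.52%). Of the 5 genes, Sult1a1 was called between males and OVX females (difference of diet effects -1.28, SE 0.58) and 0 were called in the other comparisons. This call was lost when any of 8 single arrays was left out, M + LFD replicates 1 and 2 among them, with differences of -1.67 to -1.04 over the 16 arrays left out in turn. Without M + LFD replicates 1 and 2 together the difference was -0.72, and Sult1b1 was called in place of Sult1a1. For Sult1d1 the differences were -0.85 (SE 0.77) between males and females and -1.09 (SE 0.77) between males and OVX females.

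The signals of Ugt2b5, Ugt2b36 and Ugt2b37 were also set beside the Hox genes on the arrays other than M + LFD replicates 1 and 2. Hoxd13, another posterior homeobox gene, was above 9 on 6 arrays (M + HFD replicates 1 and 4, F + LFD replicate 3, F + HFD replicate 3, F(OVX) + LFD replicates 2 and 4), a limit set after the values were seen. On these 6, Ugt2b36 and Ugt2b37 were detected on none and Ugt2b5 on 1, with Ugt2b5 between 1.99 and 4.36. On the other 16, Ugt2b5 was detected on 11 (2.67 to 8.16), Ugt2b37 on 4 and Ugt2b36 on 3. Sult1d1 overlapped between them, at 9.72 to 11.50 on the 6 and 10.13 to 11.90 on the 16. Cdx2, a transcription factor of the intestinal epithelium, read 9.16 to 11.59 on the 6, 11.83 to 13.69 on the 16, and 14.07 and 14.23 on M + LFD replicates 2 and 1. The arrays with high Hoxd13 were unevenly spread over the groups. Diet differences with the distal Hox covariate are given below, and gut position as a cause was not tested.

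**Figure D4:**
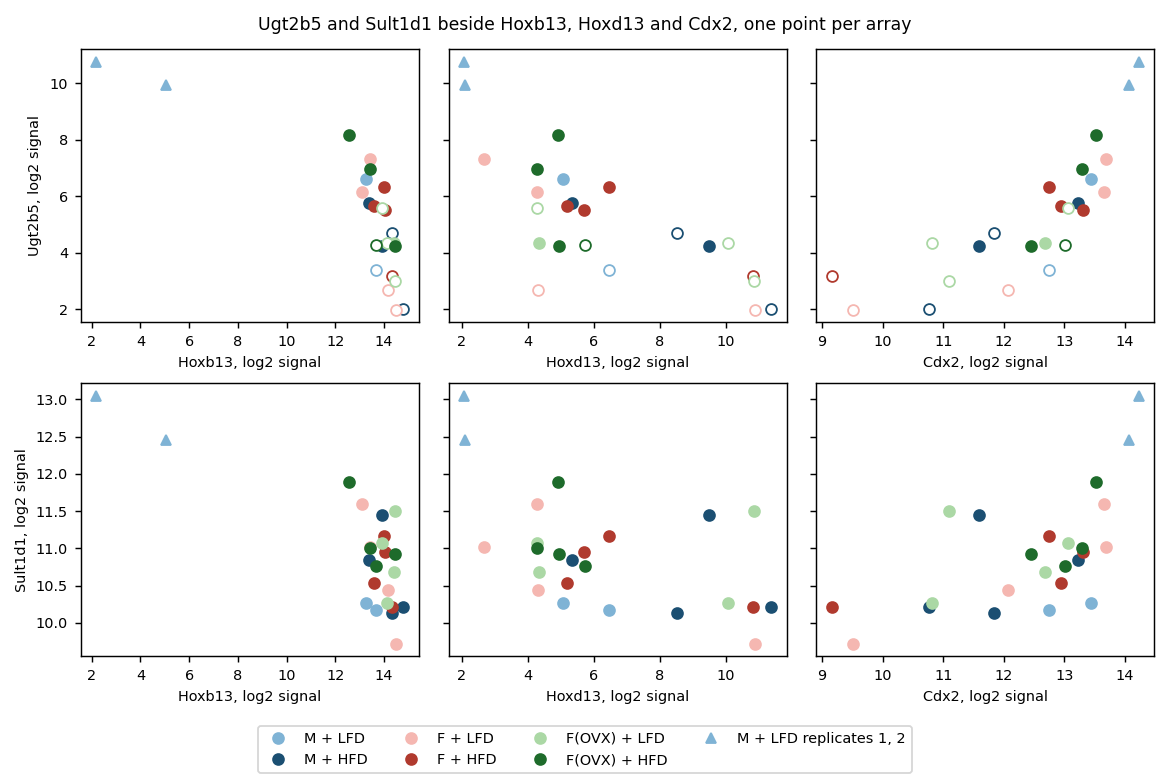
Log2 signals of Ugt2b5 (top) and Sult1d1 (bottom) against those of Hoxb13, Hoxd13 and Cdx2, with 1 point per array and colors for the 6 groups. Open symbols in the top row are arrays where Ugt2b5 was not well above background. The triangles, M + LFD replicates 1 and 2, lie apart with Hoxb13 at 2.18 and 5.04, and arrays with Hoxd13 above 9 have Ugt2b5 at or below 4.36. The points share their arrays and slides.

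Other genes of the pathway were taken from lists of other glucuronosyltransferases and sulfotransferases, cofactor supply, deconjugation, conjugate efflux and transcription factors, with 60 of 71 listed genes on the array. In males 39 could be tested, 0 were called higher with HFD and 4 lower, in females 0 of 41 were called, and in OVX females 5 of 38 were called higher and 0 lower. The lowest adjusted p among the genes called was 0.801 in males and 0.9996 in OVX females (limma), so none held after adjustment, and 8 arrays allow no permutation p below 0.0286. The lists were chosen with earlier results of these data known, and single genes are named below mostly because they were called. Their permutation p-values are therefore a description and no independent test.

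Ugt2b38, a neighbour of Ugt2a3 on chromosome 5, was above background on all 4 arrays of M + LFD and 1 of M + HFD, and on 2 of F(OVX) + LFD and 4 of F(OVX) + HFD. It thus passed the detection filter through the higher group, and its differences include signals at background. It read 11.49, 10.72, 6.83 and 4.50 in M + LFD and 3.16, 4.10, 6.71 and 2.64 in M + HFD. The difference was -4.23 (SE 1.58, two-sided exact permutation p = 0.0571), and without M + LFD replicates 1 and 2 it was -1.51 (SE 1.21) and no longer called. In F(OVX) + LFD it read 4.66, 3.92, 6.68 and 2.47 and in F(OVX) + HFD 5.29, 9.08, 7.47 and 5.66, a difference of 2.44 (SE 1.02, exact permutation p = 0.114). With normexp background correction the differences were -2.40 in males and 0.97 in OVX females, the latter no longer called. With the distal Hox covariate they were -0.48 in males and 1.03 in OVX females, neither of them called. The groups overlapped in both comparisons, and the highest array of each was one where Ugt2b5 was also highest.

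The UGT1A genes share their last exons, so that a probe there reads all of them. In the main fit 1 was called in males and 2 others in OVX females, and none in both. With the mean of all probes Ugt1a6b was called in both. With a single fit or the replicate block Ugt1a10 and Ugt1a6a were called in males. Ugt1a6b was lower with HFD in males (-1.04, SE 0.38, exact permutation p = 0.0857), and its other probes gave -1.14 and -2.02. In OVX females the Ugt1a6b probes gave 0.42, 0.67 and 1.45. In OVX females Ugt1a10 (0.75, SE 0.26, exact permutation p = 0.0571) and Ugt1a6a (0.65, SE 0.25, exact permutation p = 0.0857) were higher with HFD. Without M + LFD replicates 1 and 2, Ugt1a6b was lower by 0.37 in males (-0.37, SE 0.29) and not called.

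For cofactor supply, 8 genes were tested in each comparison and 1 was called. Slc35d1, which carries UDP-glucuronic acid into the endoplasmic reticulum, was lower with HFD in males (-1.29, SE 0.47), where the groups did not overlap (exact permutation p = 0.0286, the smallest the design allows). It differed by -0.39 (SE 0.23) without M + LFD replicates 1 and 2 and by -1.08 as the mean of its probes. With the distal Hox covariate it differed by -0.60, and it was called in none of these cases. Its second probe, detected on 15 arrays, gave -0.86 in males and 0.24 without those arrays. Ugdh, which makes UDP-glucuronic acid, and Papss2, which makes PAPS, differed by -0.95 (SE 0.60) and -0.52 (SE 0.32) in males and were not called. Of the transcription factors, Cdx2 was lower with HFD in males (-1.77, SE 0.53, exact permutation p = 0.0571) and by -1.24 (SE 0.64) without those arrays, no longer called. In OVX females Sult4a1, a sulfotransferase best known from brain, was higher with HFD (1.098, SE 0.48, exact permutation p = 0.114), as was Arsb, a lysosomal sulfatase (0.64, SE 0.25, exact permutation p = 0.0571). Sult4a1, Arsb and Ugt1a6a were not detected on all 4 F(OVX) + LFD arrays and passed the detection filter through the higher group. Their differences thus include signals at background. With normexp background correction the differences were 0.68, 0.16 and 0.35 in that order, and none was called. All 5 calls of pathway genes in OVX females were lost without F(OVX) + HFD replicate 2, with differences of 1.71 for Ugt2b38, 0.58 for Ugt1a10, 0.53 for Ugt1a6a, 0.61 for Sult4a1 and 0.66 for Arsb. Sult1c1 and Sult2b1 were called in males once M + LFD replicates 1 and 2 were left out, with Sult1c1 (0.77, SE 0.25) and the cholesterol sulfotransferase Sult2b1 (0.71, SE 0.26) higher with HFD.

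Smooth muscle markers, which do not belong to the pathway, moved in OVX females, with 4 of 6 called higher with HFD and a median difference of 0.84, and their mean signal ranged from 11.49 to 14.36 over the 24 arrays. Of the 9 epithelial markers 0 were called in the 3 comparisons (limma), with a median difference of 0.03 for males, -0.07 for females and 0.22 for OVX females. Absorptive colonocyte markers had a median difference of 0.75 in males and 0.52 in OVX females, with 1 of 6 called higher in each. In males 1 of 2 adipocyte markers tested and 1 of 2 small intestine markers tested were called lower with HFD, with medians of -1.79 and -1.69. In OVX females 1 of 7 goblet cell markers and 1 of 2 small intestine markers were called higher. The part of these in the results above was not tested.

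Likeness of pattern was measured by Pearson's r over the 24 arrays among genes detected on all of them, as a description, since the arrays share slides and M + LFD replicates 1 and 2 weigh heavily. Sult1d1 was most like Ugdh (r = 0.94, and 0.86 over the 22 other arrays), Adtrp (0.92 and 0.86) and Ppara (0.91 and 0.80). Ugt2b5 was most like Abcb6 (0.94 and 0.88), H2-T3 (0.93 and 0.88) and Sct (0.92 and 0.85). Sult1a1 was most like Odf3b (0.87 and 0.84), Selenbp2 (0.87 and 0.83) and Selenbp1 (0.84 and 0.78), and Ugt2b34 was most like Kif16b (0.86 and 0.85). For Ugt2b36 and Ugt2b37, most of whose signals are at background, the nearest genes were Prpsap1 (0.93 and 0.81) and Gsdme (0.89 and 0.78). Sult1b1 (Slc40a1, 0.82 and 0.80), Sult1c2 (Hectd4, 0.76 and 0.72) and Ugt2b35 (Mtch1, 0.72 and 0.75) had less close neighbours, and Ugt2a3 was not compared because it was detected nowhere.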

How the data were processed

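Colon RNA was labeled with Cy3 and hybridized to Agilent mouse arrays. Feature Extraction 11.0.1.1 gave the intensity of each spot on a linear scale, deposited after background subtraction and before normalization between arrays, with flags for spots well above background. An array had 40.5% to 61.9% of its probes well above background, and precision is limited by the number of arrays. After control spots were removed, log2 values of this signal were quantile-normalized across 24 arrays. Accessions were matched to RefSeq symbols (GRCm38.p6) for 32994 of 56605 probes (58.3%), and a gene was its brightest probe. Diets were compared with limma 3.58.1 in R 4.3.3 (lmFit and eBayes), and for single genes by exact permutation over 70 assignments. The test was also tried on simulated data. The genes and lists were chosen with earlier results of these data known. Named were all 10 genes, pathway genes called in a comparison (at most 6 each), and the genes most alike in pattern. Sult1c1 and Sult2b1, marker lists, Ugdh and Papss2 were named after their values were seen. Alternatives covered scaling, background correction, detection filters, the t-test of the methods, a single fit, the replicate block, other probes, a distal Hox covariate and each array left out. Same-numbered arrays deviated together in females (r = 0.25, 0.39, 0.51 and 0.23), but not in males (-0.22 to 0.06) or throughout in OVX females (-0.08 to 0.31). The labels state no pairing, and both female replicate 3 arrays had high Hoxd13 (10.90 and 10.84). Whether the numbers pair mice is not known. P-values rest on the spread between arrays, which holds differences between mice together with those of the tissue piece and the array.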

Additional observations from a re-analysis of the deposited data

Results flagged for a closer look

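The effect of diet differed between males and females, with p under 0.05 before adjustment and effects 1.5-fold or more apart, for 7 of 41 other pathway genes tested, and between males and OVX females for 12 of 41, whereas 0 of 41 differed between OVX females and females (limma). All failed adjustment (adjusted p of 0.975 between males and females and at least 0.562 between males and OVX females). The differences of log2 diet effects, males minus females, were -5.04 for Ugt2b38, -1.86 for Sult4a1, -1.75 for Slc35d1, -1.10 for Ugt1a6b, -1.02 for Ugt2a1, -0.95 for Pparg and -0.65 for Abcc1. Those of males minus OVX females were -6.67 for Ugt2b38, -2.93 for Cdx2, -2.39 for Sult4a1, -1.65 for Slc35d1, -1.65 for Ppara, -1.54 for Ugt1a10, -1.46 for Ugt1a6b, -1.35 for Ugt1a6a, -1.28 for Pparg, -1.05 for Arsb, -0.85 for Papss2 and, in the other direction, 2.61 for Nr1i3. Nr1i3 was not detected on all 4 arrays of either diet in males, and Ugt2b38 was undetected on most M + HFD arrays. The differences of these genes thus include signals at background. Sult1a1, of the 10 genes and not among the 41, differed by -1.28. Without M + LFD replicates 1 and 2, 2 of the pathway genes differed between males and females (Abcc1 and Sult1c1). Between males and OVX females 3 then differed (Abcc1, Nr1i3 and Ugt1a6b). With the distal Hox covariate 2 of 41 differed between males and females (Abcc1 and Sult1c1). Between males and OVX females 2 of 41 did with this covariate (Abcc1 and Sult4a1).

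Of 69 gene and group sets examined, 2 held an array far from the other 3, and chance alone flags about 1 in 20. Slc35d1 read 8.87 on F(OVX) + LFD replicate 3, and Cdx2 read 9.16 on F + HFD replicate 3, an array with high Hoxd13.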

How the results depend on the processing

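No called result reversed under the alternatives run, while the uncalled differences of the 5 detected genes in males turned without M + LFD replicates 1 and 2. Genes called in males numbered 567 with normexp, 489 with the methods' t-test and 264 with a distal Hox covariate, against 882. In females, against 264, they numbered 80 with normexp, 108 with probes detected on all 24 arrays, 627 without a filter, 125 with the t-test and 457 with the covariate. In OVX females, against 421, they numbered 269, 843 (no filter), 209 (t-test), 251 (a single fit) and 829 (covariate). With the replicate block, which takes same-numbered arrays as pairs though the labels state no pairing, 586 were called in females. For the difference of males against females and of OVX females against females 1150 and 548 were. That block called 1 of the 10 genes (Sult1a1) and 3 pathway genes in OVX females. The differences called 1056 (no filter) and 360 (covariate) genes for males against females, 652 (covariate) for males against OVX females, and 151 (normexp), 187 (all 24), 827 (no filter) and 606 (covariate) for OVX females against females.

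Without a filter, 1 of the 10 genes was called in males, in OVX females, and for males against females and OVX females against females (Ugt2b37 each time), and 4 for males against OVX females, while 0 were called there with the 75th percentile or the covariate. The 4 were Sult1a1, Ugt2b36, Ugt2b37 and Ugt2b5. Of the 45616 gene names, 1217 were called in males and 843 in OVX females without a filter. Ugt2b5, Ugt2b36 and Ugt2b37 entered there with undetected signals, so nothing is read from their calls. A single fit of all arrays called 1 in OVX females (Sult1a1). Pathway genes called in males were 1 with the t-test (Cdx2) and 1 with the covariate (Abcc1), against 4 (Cdx2, Slc35d1, Ugt1a6b and Ugt2b38). Without M + LFD replicates 1 and 2 they were 2 others (Sult1c1 and Sult2b1). In OVX females they were 2 with normexp and 2 on all 24 (Cdx2 and Ugt1a10 each time), and 3 without a filter (Arsb, Ugt1a10 and Ugt1a6a), against 5. The t-test called 1 (Ugt1a10), a single fit 1 (Arsb) and the covariate 1 (Abcb1a). With the covariate none of the main pathway calls in males or OVX females was kept. Leaving out each array gave 0 to 3, 0 to 1 and 0 to 1 of the 10 genes in males, females and OVX females, 1 to 9, 0 and 0 to 8 pathway genes, and 584 to 1510, 163 to 733 and 218 to 708 genes. For the differences it gave 0 to 2, 0 to 3 and 0 of the 10 genes and 427 to 1235, 910 to 1936 and 197 to 549 genes. The cause was not tested. Signal over background limits Ugt2b5, Ugt2b35, Ugt2b36, Ugt2b37 and Ugt2a3, which were never detected on all arrays.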
